A study of Mus musculus with 32 samples.

Results

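C/EBPβ binding was compared between the livers of mice given dexamethasone and mice given vehicle, using the deposited list of C/EBPβ ChIP-seq peaks for each condition. The members are the 27793 peaks that carry an identifier in either list, out of 180039 intervals in the 5 lists of the series. Of these, 27406 lie on the 19 autosomes and are described here. All animals were male C57BL/6 mice, 8 weeks old, with both adrenal glands removed. The dexamethasone group (2 C/EBPβ ChIP-seq samples) received 1 mg/kg dexamethasone in a cyclodextrin complex, injected into the abdomen in 300 ul of saline. The vehicle group (2 samples) received cyclodextrin in the same volume, and the livers were examined 1 h after injection. The series holds 32 samples in all. GR (glucocorticoid receptor) peaks and DNase I hypersensitive sites (DHS) from the same series were used as reference positions. Adrenalectomy leaves both groups with little glucocorticoid of their own, so the vehicle group is a low-hormone state and not an untreated animal. The antibody was sc-150 from Santa Cruz. Whether livers were pooled, and how the samples of a group were combined into its list, was not given.

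C/EBPβ belongs to the leucine zipper family of transcription factors. It binds DNA as a dimer and is abundant in hepatocytes, where it takes part in the control of metabolic and acute-phase genes. Dexamethasone is a synthetic ligand of GR, a receptor that moves to the nucleus and binds DNA once it holds a ligand. A DHS is a stretch of chromatin open enough to be cut by DNase I, and most binding of such factors is found in these sites. The series' title concerns the role of C/EBP in keeping liver chromatin open and in helping GR to its sites.

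Each condition has 1 list and the lists hold positions only, so read depth is unknown and no replicate error exists. Shares are followed by their 95% Wilson interval in parentheses, and medians by a 95% order-statistic interval. Both cover counting error only and treat peaks as independent, which neighbouring peaks are not. The number of the 19 autosomes that show a direction is also given, as a measure of evenness over the genome. All autosomes come from the same list of each condition. Their counts are therefore not replicates and do not measure spread between animals or samples. Intact liver holds several cell types, and binding in fewer cells cannot be told apart from weaker binding in each cell. Positions are of the mouse build mm9.

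Most C/EBPβ peaks were in both lists, and the list after dexamethasone had more peaks of its own. On autosomes, 20048 peaks (73.2%, 72.6 to 73.7) were in both lists and are called retained. A further 5001 (18.2%, 17.8 to 18.7) were in the dexamethasone list only, and 2357 (8.60%, 8.27 to 8.94) in the vehicle list only. These classes are called dex-only and vehicle-only. Over the merged autosomal peaks the background was thus 18.2% dex-only and 8.6% vehicle-only. Shares within subsets are read against these values unless a closer set is named.

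The excess of dex-only over vehicle-only peaks was found on every autosome, with a ratio between 1.58 and 3.40. Dex-only peaks made up the smallest share on chromosome 3, with 227 of 1511 peaks (15.0%). The largest share was on chromosome 17, with 231 of 1060 peaks (21.8%), where vehicle-only peaks had their lowest share (6.42%). The vehicle-only share ranged up to 10.3%, and the retained share only from 70.9% to 75.7%. All dex-only and vehicle-only peaks were 150 bp wide. Retained peaks had a median width of 155 bp and reached 397 bp, and 17130 of the 20048 (85.4%) were wider than 150 bp. Absence from a list is a call against an unknown threshold, so it does not show that a site was unbound.

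Vehicle-only peaks lay farther from other C/EBPβ peaks than the other classes did. Their median distance to the nearest retained peak, centre to centre, was 16151 bp (14588 to 17976), against 8958 bp (8680 to 9225) between a retained peak and the next nearest retained peak. The vehicle-only median was the larger on 18 of 19 autosomes. A retained peak was over 100 kb away from 389 of 2357 vehicle-only peaks (16.5%, 15.1 to 18.1) and from 1690 of 20048 retained ones (8.43%, 8.05 to 8.82). The direction was the same at short range. A retained peak lay within 1 kb of 198 vehicle-only peaks (8.40%, 7.35 to 9.59) and of 2729 retained peaks (13.6%, 13.1 to 14.1).

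Dex-only peaks were spaced from retained peaks nearly as retained peaks were from each other. Their median distance to the nearest retained peak was 10620 bp (9793 to 11318), and 91.7% of them had a retained peak within 100 kb, against 91.6% of retained peaks. The difference in this share was 0.09 percentage points (-0.79 to 0.92, Newcombe interval). At shorter range dex-only peaks were slightly less often beside a retained peak: 49.1% against 52.2% had one within 10 kb, a difference of -3.11 points (-4.66 to -1.56) that was seen on 16 of 19 autosomes. The remaining 417 dex-only peaks (8.34%, 7.60 to 9.14) lay over 100 kb from any retained peak. A retained peak within 100 kb was common in every class, with 83.5% (81.9 to 84.9) of vehicle-only peaks. The share for arbitrary positions was not measured, so the 100-kb values do not show that dex-only peaks favoured neighbourhoods of retained peaks.

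Dex-only peaks had a dex-only peak nearby more often than retained or vehicle-only peaks did. Another dex-only peak was within 10 kb of 1180 of 5001 dex-only peaks (23.6%, 22.4 to 24.8). The same held for 3484 of 20048 retained peaks (17.4%, 16.9 to 17.9) and for 209 of 2357 vehicle-only peaks (8.87%, 7.79 to 10.1). Dex-only peaks had the higher share than retained peaks on 17 of 19 autosomes, and vehicle-only peaks the lower share on 19 of 19. The difference between dex-only and retained peaks was 6.22 points (4.94 to 7.52), and that between vehicle-only and retained peaks was -8.51 points (-9.72 to -7.19). At 500 bp or less, 208 dex-only peaks (4.16%) had another dex-only peak, against 262 retained peaks (1.31%).

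Vehicle-only peaks, the smaller class, showed a like pattern on a lower level. Another vehicle-only peak was within 10 kb of 249 of them (10.6%, 9.39 to 11.9), against 7.51% of retained and 4.36% of dex-only peaks. The share was above that of retained peaks on 16 of 19 autosomes, and the dex-only share was below it on 19 of 19. The median distance from a dex-only to the nearest vehicle-only peak was 254511 bp (240803 to 265486), longer than the 212292 bp from retained peaks. Only 13 dex-only peaks had a vehicle-only peak within 500 bp. Retained peaks had the same coordinates in both lists, and how overlapping calls of the lists were given identifiers is unknown. The count therefore cannot show how often a peak position differed between the lists. A retained or vehicle-only peak lay within 500 bp of 271 dex-only peaks.

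**Figure D1:**
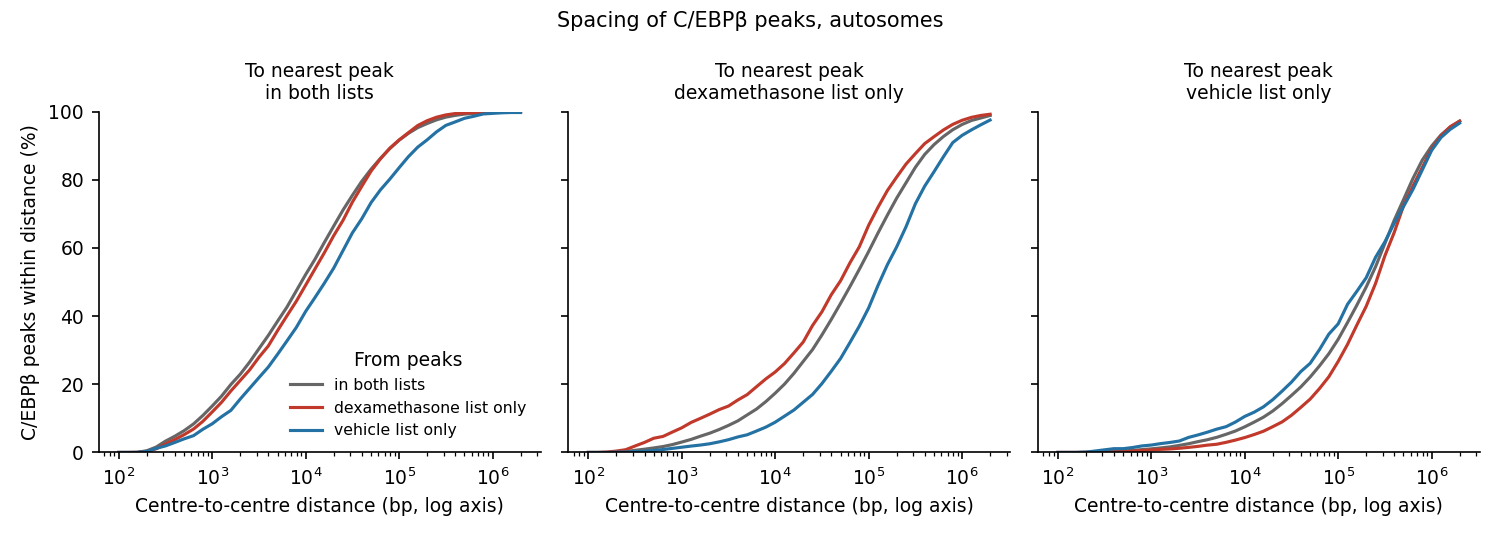
Share of C/EBPβ peaks of each class (lines) that have a peak of the class named above the panel within a given centre-to-centre distance (bp, log axis), autosomes only. Vehicle-only peaks run to the right of the other lines in the left and middle panels, and dex-only peaks lie leftmost in the middle panel, with 23.6% within 10 kb of another dex-only peak.

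The order of peaks along the chromosome showed the same grouping. The next peak after a dex-only peak was dex-only in 1148 of 4997 cases (23.0%, 21.8 to 24.2), after a retained peak in 17.6% (17.1 to 18.2) and after a vehicle-only peak in 13.5% (12.1 to 14.9). The first of these lies above the background of 18.2%, and the last below it. After a vehicle-only peak the next was vehicle-only in 290 of 2355 cases (12.3%, 11.05 to 13.7), above the background of 8.6%, and after a dex-only peak in 6.58% (5.93 to 7.31), below it. Both classes were therefore found beside their own kind more often, and beside each other less often, than their shares of all peaks.

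This neighbourhood was strongest at short range. With a gap of up to 1 kb, the next peak after a dex-only peak was dex-only in 180 of 509 cases (35.4%, 31.3 to 39.6), against 294 of 1807 (16.3%, 14.6 to 18.0) after a retained peak. The dex-only share was 22.9% for gaps of 1 to 10 kb and 22.1% for gaps of 10 to 100 kb. Over 100 kb it was 17.6% (15.1 to 20.4), close to the 17.3% after retained peaks. For vehicle-only peaks the share followed by their own class was 19.1% (13.4 to 26.5, 26 of 136) up to 1 kb. After retained peaks the vehicle-only share was 5.87% (4.87 to 7.05, 106 of 1807) at this gap. Over 100 kb the shares were 11.7% (9.35 to 14.5) after vehicle-only and 13.4% after retained peaks.

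Runs of list-only peaks were short. Of the 5001 dex-only peaks, 1992 stood in 844 runs of 2 or more without any other class between them, and 90 peaks made 14 runs of 5 or more. The longest run had 9 dex-only peaks, on chromosome 12 from 16542097 to 16638230. In this stretch of 96.1 kb, 7 of the 9 peaks lay in a DHS, 3 GR peaks were present, and the dexamethasone list had 13 DHS against 8 in the vehicle list. Vehicle-only peaks reached runs of 4 at most, of which there were 5. The shortest of these lay on chromosome 2 from 72723905 to 72732091, with 4 peaks in 8.19 kb, none of them in a DHS and with no GR peak. The remaining runs of 4 lay elsewhere on chromosome 2 and on chromosomes 4, 5 and 15. In those on chromosomes 2 and 4 all 4 peaks were in a DHS, and in those on chromosomes 5 and 15 this held for 3 of 4.

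Joined into clusters with centres at most 10 kb apart, the peaks formed 11115 single sites and 5687 clusters of 2 or more. Vehicle-only peaks stood alone in 50.2% of cases (48.2 to 52.2), against 39.9% (38.6 to 41.3) of dex-only and 39.6% (38.9 to 40.3) of retained peaks. The vehicle-only share exceeded the retained one on 19 of 19 autosomes. The difference between dex-only and retained peaks was 0.35 points (-1.16 to 1.87). The vehicle-only share of peaks declined with the size of the cluster, from 10.6% of single sites to 8.0% in pairs, 7.47% in clusters of 3 to 4, 5.71% in clusters of 5 to 9 and 3.77% (2.45 to 5.75) in the 46 clusters of 10 or more. The dex-only share stayed between 17.7% and 18.9% up to 9 peaks, near the background, and was 21.5% (18.2 to 25.2) in the largest clusters.

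Of the 5687 clusters, 2628 (46.2%) held retained peaks only, 1838 (32.3%) retained and dex-only peaks, and 734 (12.9%) retained and vehicle-only peaks. Dex-only peaks alone made up 198 clusters (3.48%) and vehicle-only peaks alone 55 (0.967%). Dex-only and vehicle-only peaks met in 174 clusters with a retained peak (3.06%) and in 60 without (1.06%). A retained peak shared the cluster of 50.3% of dex-only peaks (48.9 to 51.7) and of 42.2% of vehicle-only peaks (40.2 to 44.2).

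The largest clusters held dex-only peaks among retained ones. On chromosome 14, from 26280973 to 26359967, 20 peaks comprised 13 retained and 7 dex-only ones. All 7 dex-only peaks there were in a DHS, and 8 of the 20 peaks overlapped a GR peak. The next cluster, on chromosome 15 from 88681015 to 88733161, had 8 retained and 7 dex-only peaks. A cluster of 14 on chromosome 4, from 53131729 to 53171802, had 11 retained, 1 dex-only and 2 vehicle-only peaks. It thus held both kinds of list-only peak, which the clusters on chromosomes 14 and 15 did not.

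List-only peaks were also counted in windows of 100 kb. Windows with 2 or more dex-only peaks (1009) held 49.6% of all dex-only peaks, and windows with 2 or more vehicle-only peaks (290) held 26.4% of vehicle-only peaks. The classes differ in number, so these shares cannot be compared with each other. The highest count of dex-only peaks was 8, in windows that began at 167600000 (chromosome 2), 90400000 (chromosome 6) and 71000000 (chromosome 7). The window on chromosome 7 had 4 retained, 8 dex-only and 0 vehicle-only peaks, with all 8 in a DHS and 6 GR peaks. The first 2 of the 3 windows with 7 dex-only peaks, in genome order, began at 120900000 (chromosome 5) and 26300000 (chromosome 14). In these 5 windows there were at most 1 vehicle-only peak each and between 6 and 17 GR peaks. Of all 3531 windows with a dex-only peak, 543 (15.4%, 14.2 to 16.6) held a vehicle-only peak, so few such peaks is the usual case. GR peaks per window were not counted over all windows.

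The window with most vehicle-only peaks began at 77200000 on chromosome 14. It held 6 of them with 8 retained and 0 dex-only peaks, and 4 of the 6 lay in a DHS. The 4 windows with 4 vehicle-only peaks each began at 72700000 (chromosome 2), 80900000 (chromosome 4), 17400000 (chromosome 5) and 4000000 (chromosome 11). None of these 5 windows held a dex-only peak, which is also the more common case over all windows with a vehicle-only peak. Of those 2024 windows, 543 (26.8%, 24.9 to 28.8) held a dex-only peak. Between 0 and 4 GR peaks lay in each of the 5, without a value over all windows to set this against. The chromosome 5 window was the only one of the 5 without a retained peak.

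List-only peaks differed from retained ones in where they lay relative to open chromatin. Of retained peaks, 16293 (81.3%, 80.7 to 81.8) overlapped a DHS of both lists by at least 1 bp, of dex-only peaks 3295 (65.9%, 64.6 to 67.2) and of vehicle-only peaks 1257 (53.3%, 51.3 to 55.3). Both list-only shares were below the retained share on 19 of 19 autosomes, and dex-only exceeded vehicle-only on 18. Peaks with no DHS in either list made up 27.9% of vehicle-only (26.1 to 29.7), 14.9% of dex-only (14.0 to 15.9) and 10.5% of retained peaks (10.1 to 10.9). The vehicle-only share was 17.4 points above the retained one (15.6 to 19.3) and the dex-only share 4.42 points above it (3.37 to 5.52). When only DHS wider than the median counted, the shares without a DHS were 61.6% of vehicle-only, 30.8% of dex-only and 30.6% of retained peaks, so the difference between dex-only and retained peaks was then within counting error.

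Where only 1 condition had a DHS at the peak, the class of the peak and the condition of the DHS went together. A dexamethasone DHS without a vehicle DHS lay at 881 dex-only peaks (17.6%, 16.6 to 18.7), at 5.003% of retained peaks (4.71 to 5.31) and at 3.52% of vehicle-only peaks (2.85 to 4.34). A vehicle DHS without a dexamethasone DHS lay at 360 vehicle-only peaks (15.3%, 13.9 to 16.8), at 3.23% of retained peaks (2.996 to 3.49) and at 1.58% of dex-only peaks (1.27 to 1.96). The matching class had the highest share on 19 of 19 autosomes in both cases. With only DHS wider than the median, the shares at dexamethasone DHS only were 21.1% of dex-only and 10.5% of retained peaks, and those at vehicle DHS only 13.7% of vehicle-only and 7.83% of retained peaks. ChIP-seq and DNase-seq were separate assays with samples of their own, and each call depends on its own threshold. The sample labels do not say whether the same livers were used for both.

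Read from the DHS, the classes were mixed differently at each kind of site. Peaks at a dexamethasone DHS without a vehicle DHS were dex-only in 881 of 1967 cases (44.8%, 42.6 to 47.0), against a background of 18.2%. Peaks at a vehicle DHS without a dexamethasone DHS were vehicle-only in 360 of 1087 cases (33.1%, 30.4 to 36.0), against 8.60%. Retained peaks were still the largest class at both, with 51.0% and 59.6%. At DHS of both lists 15.8% of peaks were dex-only and 6.03% vehicle-only, and outside all DHS 21.3% and 18.7%.

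**Figure D2:**
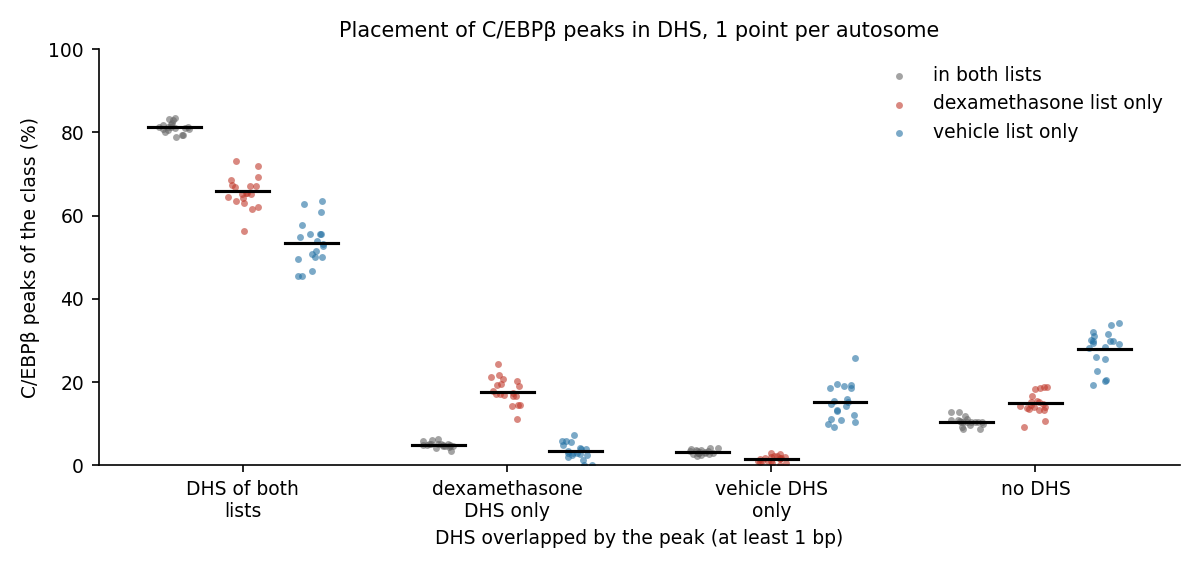
Share of C/EBPβ peaks of each class (colours) by the DHS they overlap, with 1 point per autosome (19 per class) and a black bar for all autosomes together. Retained peaks lie highest at DHS of both lists, dex-only peaks at dexamethasone DHS only and vehicle-only peaks at vehicle DHS only, and vehicle-only peaks are highest outside DHS at 27.9%.

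The DHS that held list-only peaks were also set against all DHS of their list. Of all autosomal DHS, 23.6% of the dexamethasone list overlapped no vehicle DHS, and 14.9% of the vehicle list overlapped no dexamethasone DHS. Of 4176 dex-only peaks in dexamethasone DHS, 762 lay in a DHS of this kind (18.2%, 17.1 to 19.4), below that background, and of retained peaks 5.29%. These shares count peaks, so a DHS with several peaks enters more than once, while the background counts each DHS once. For vehicle-only peaks in vehicle DHS the count was 329 of 1617 (20.3%, 18.5 to 22.4), above the background of 14.9%, and for retained peaks 3.48%. Peaks outside all DHS were mostly not at their margins. The nearest DHS edge was a median of 3387 bp away for dex-only, 4299 bp for retained and 4460 bp for vehicle-only peaks, and 28.8%, 22.6% and 21.5% of them had an edge within 1 kb.

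Within DHS, dex-only peaks lay farther from the centre than retained peaks, and in wider sites. In dexamethasone DHS the median distance from the DHS centre was 77.5 bp (74 to 80.5) for 4176 dex-only peaks and 56 bp (55 to 57.5) for 17296 retained peaks. The dex-only median was the larger on 19 of 19 autosomes. The median width of the DHS was 764 bp (753 to 777) for dex-only and 708 bp (704 to 714) for retained peaks, against 593 bp for all DHS of the list. As a share of the half-width, the median offset was 21.1% (20.4 to 21.8) against 17.1% (16.7 to 17.4). The outer part of the site, beyond 50% of the half-width, held 14.2% of dex-only (13.2 to 15.3) and 10.03% of retained peaks (9.59 to 10.5). In vehicle DHS the difference in width was smaller, with medians of 717.5 bp (706 to 728) for dex-only and 691 bp (687 to 695) for retained peaks. The dex-only median width was the larger on 15 of 19 autosomes there, and on 19 of 19 in dexamethasone DHS.

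The larger offset of dex-only peaks was also present where no other peak shared the site. A dex-only peak was the only C/EBPβ peak of the dexamethasone list in its DHS in 3498 of 4176 cases (83.8%), a retained peak shared the DHS in 417 cases (9.99%), and 261 (6.25%) shared it with dex-only peaks only. Among sites with a single peak, the median offset was 62 bp (58.5 to 65.5) for dex-only and 47.5 bp (46.5 to 48.5) for retained peaks, again larger on 19 of 19 autosomes. Part of the difference went with width, since dex-only peaks lay in wider sites. Within quartiles of DHS width the medians were 39 against 33.5 bp, 37 against 32 bp, 43.5 against 37 bp and 121.5 against 106 bp, from the narrowest to the widest. The intervals of both classes were apart in the upper 2 quartiles and overlapped or touched in the lower 2. Where 2 or more peaks shared a site the offsets were alike, at 229.8 bp for dex-only and 233.8 bp for retained peaks.

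Vehicle-only peaks lay in narrower DHS than retained peaks did. In vehicle DHS their median offset was 47 bp (43.5 to 50.5), against 53 bp (51.5 to 54) for retained peaks, and the sites were 599 bp wide (590 to 609) against 691 bp (687 to 695). The width for all vehicle DHS was 598 bp, so vehicle-only peaks lay in sites as wide as the list's median. The smaller width held on 19 of 19 autosomes, and the smaller offset on 14. Relative to the half-width the offsets were 17.1% (15.9 to 18.2) for vehicle-only and 16.2% (15.9 to 16.6) for retained peaks, so the smaller distance in bp was not a more central position within the site. In the widest quartile of sites with a single peak, vehicle-only peaks had the larger offset, with 168.5 bp (148.5 to 191.5) for 285 peaks against 106 bp (102 to 109.5) for retained peaks.

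Most occupied DHS held a single C/EBPβ peak. Of 19887 occupied dexamethasone DHS, 18382 (92.4%) had 1 peak, 1432 had 2, 67 had 3 and 6 had 4 or more. Of 17428 occupied vehicle DHS, 16349 (93.8%) had 1 peak. The dexamethasone DHS with most peaks lay on chromosome 13 from 52247890 to 52251722. It held 4 retained peaks and 1 dex-only peak, with 2 GR peaks, and 2 vehicle DHS lay in its place.

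**Figure D3:**
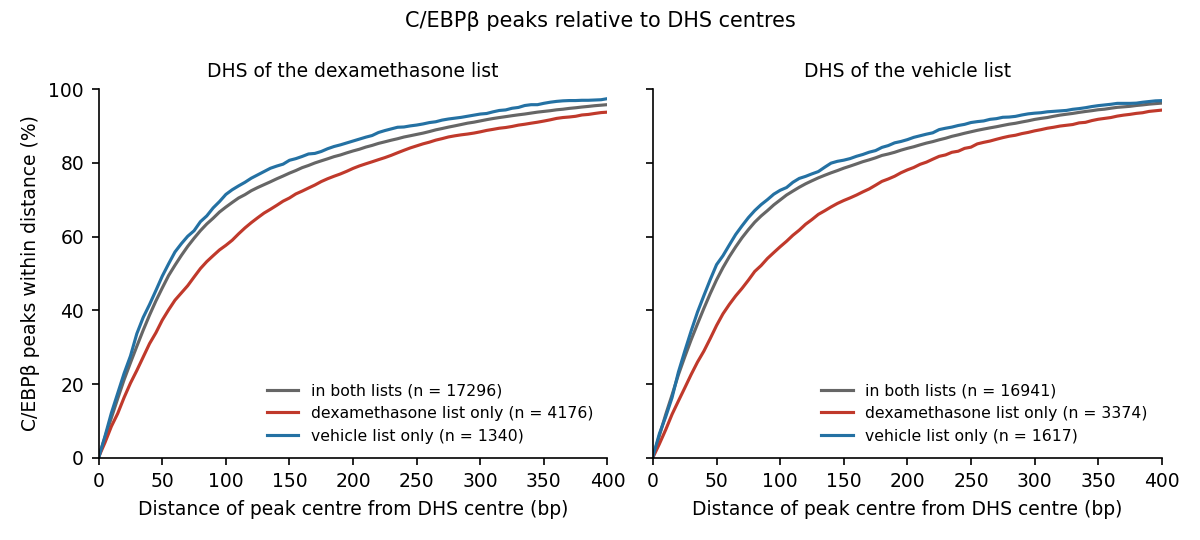
Share of C/EBPβ peaks within a given distance (bp) of the centre of the DHS they overlap, for DHS of the dexamethasone list (left) and the vehicle list (right), by class. Dex-only peaks lie lowest in both panels, with medians of 77.5 bp and 79 bp, and retained and vehicle-only peaks lie above them.

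The width of the DHS differed between treatments in the direction of the C/EBPβ class. Width was compared at 43105 autosomal DHS that overlapped 1 DHS of the other list and no more, as a log2 ratio of dexamethasone over vehicle width. Sites that held only dex-only peaks (2602) had a median of 0.08 (0.07 to 0.10), and 64.3% of them were wider after dexamethasone (median 757 bp, against 684 bp after vehicle). Sites with only vehicle-only peaks (1059) had a median of -0.12 (-0.15 to -0.11), and 30.4% of them were wider (median 557 bp, against 609 bp). Sites with only retained peaks (13816) had a median of 0.02, and matched sites without any C/EBPβ peak (25236) a median of -0.0025. The dex-only median was above the retained one, and the vehicle-only median below it, on 19 of 19 autosomes.

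GR peaks went together with part of this. Dex-only sites with a GR peak in either DHS (833) had a median log2 ratio of 0.29 (0.26 to 0.31), and those without GR (1769) of 0.02 (0.01 to 0.03). Retained sites had 0.08 with GR and -0.02 without. Without GR the dex-only median was still the higher one on 19 of 19 autosomes, with a difference of 0.01 to 0.09. Vehicle-only sites without GR (1015) had a median of -0.13 (-0.16 to -0.11), below retained sites without GR on 19 of 19 autosomes. The 44 vehicle-only sites with GR had a median of 0.06 (-0.03 to 0.15), and 59.1% of them were wider after dexamethasone.

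Sorted by the change in width, the classes changed places. In the fifth of matched DHS that were narrowest after dexamethasone relative to vehicle, 8.26% of the C/EBPβ peaks were dex-only (7.34 to 9.28) and 13.7% vehicle-only (12.6 to 15.0). In the fifth with the largest relative width, 24.1% were dex-only (22.8 to 25.5) and 2.43% vehicle-only (1.98 to 2.97). The vehicle-only share declined in each step, and the dex-only share was level between the third and the fourth step (15.9% and 15.6%). Retained peaks varied less, from 73.5% to 80.4%.

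**Figure D4:**
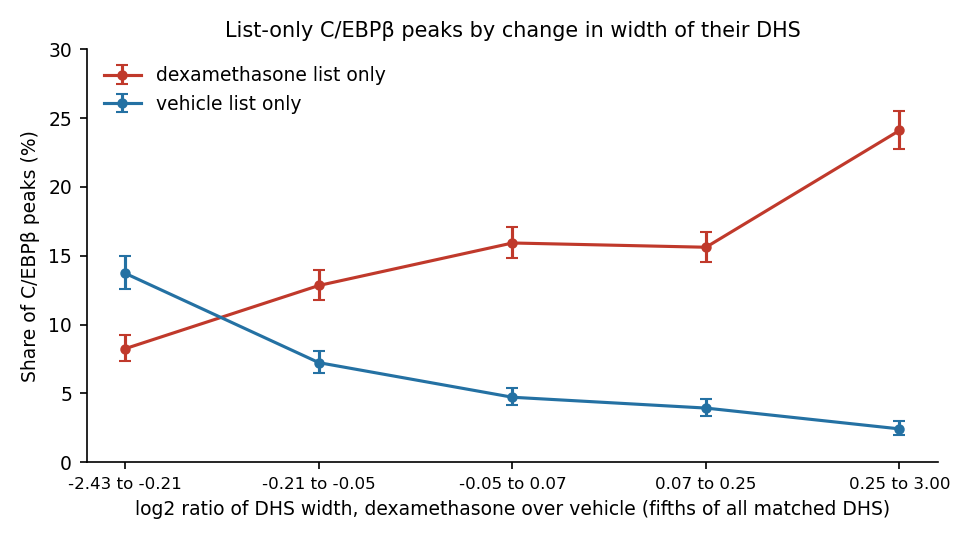
Share of C/EBPβ peaks in matched DHS that were dex-only or vehicle-only (y axis, %), in 5 equal groups of the log2 ratio of DHS width, dexamethasone over vehicle (x axis), with 95% Wilson intervals as bars. The dex-only share goes from 8.26% to 24.1% and the vehicle-only share from 13.7% to 2.43%. Of all 19223 peaks in matched DHS, 3001 were dex-only and 1165 vehicle-only.

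The classes did not differ beyond their intervals in which DHS centre they lay nearer to. A dex-only peak lay nearer the dexamethasone than the vehicle centre in 1300 of 2688 cases (48.4%, 46.5 to 50.3), a retained peak in 47.7% (46.9 to 48.5) and a vehicle-only peak in 49.3% (46.4 to 52.3). Peaks equally far from both centres counted as not nearer, so the remainder is not the share nearer the vehicle centre. Centres of matched DHS differed by a median of 32.5 bp for dex-only and retained peaks and of 35 bp for vehicle-only peaks. Dex-only peaks had median offsets of 73.8 bp from the dexamethasone centre and 69.5 bp from the vehicle centre. The offset of dex-only peaks was also present in the vehicle DHS, where no C/EBPβ peak had been called at that position.

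The distance to GR peaks separated vehicle-only from the other classes beyond the sites that GR itself overlapped. Over all merged peaks 26.4% overlapped a GR peak, by class 27.7% of dex-only (26.5 to 29.0), 29.0% of retained (28.4 to 29.7) and 1.57% of vehicle-only peaks (1.14 to 2.16). Among peaks without an overlapping GR peak, the nearest GR centre was a median of 24921 bp away for dex-only (22659 to 27119), 29231 bp for retained (27882 to 30468) and 54565 bp for vehicle-only peaks (50108 to 59413). The vehicle-only median was above the retained one on 18 of 19 autosomes, and the dex-only median below it on 15. A greater distance of vehicle-only peaks was not limited to GR. Their median distance was 16151 bp to retained peaks, against 8958 bp from retained peaks, and 129935 bp to dex-only peaks, against 67079 bp. To other vehicle-only peaks it was shorter, at 187895 bp against 212292 bp. Whether the distance to GR goes beyond this wider spacing was not tested. The GR list names no treatment, and its peaks were used as 1 set.

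The vehicle-only share rose steadily with distance from GR. It was 0.511% among peaks that overlapped GR, 4.77% up to 1 kb, 9.003% from 1 to 10 kb, 10.6% from 10 to 50 kb, 13.3% from 50 to 200 kb and 17.9% (16.6 to 19.4) beyond 200 kb, against the background of 8.6%. The dex-only share was highest beside GR without overlap, at 22.7% (20.7 to 24.8) up to 1 kb. It was 19.1% (18.2 to 20.05) at overlapping peaks and 13.6% (12.4 to 14.9) beyond 200 kb. Beyond 200 kb vehicle-only peaks (525) outnumbered dex-only ones (398).

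Where GR overlapped, dex-only peaks were slightly less well centred on it than retained peaks. The centres of dex-only and GR peaks were a median of 22 bp apart (21 to 24), against 18 bp (17.5 to 19) for retained peaks, and 46.9% against 54.0% were within 20 bp. The 37 vehicle-only peaks with GR had a median of 35 bp (17 to 40), with 40.5% within 20 bp. Most retained peaks were wider than list-only ones, and this was not taken into account. GR overlapped 45.5% (42.3 to 48.8) of the 881 dex-only peaks at a dexamethasone DHS without a vehicle DHS, and 15.6% (13.4 to 17.9) of the 1003 retained peaks there. At DHS of both lists the shares were 29.2% and 34.7%. Single dex-only peaks had GR in 20.4% of cases (18.7 to 22.2) and those in clusters in 32.6% (30.9 to 34.3), close to the 20.4% and 34.7% of retained peaks.

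Dex-only peaks were also split by whether they overlapped a GR peak themselves, whatever their neighbour did. The next peak was dex-only after 21.9% (20.6 to 23.3) of the dex-only peaks without an overlapping GR peak and after 25.8% (23.5 to 28.1) of those with one, both above the background of 18.2%. Dex-only peaks without GR were outside all DHS in 20.05% of cases (18.8 to 21.4), against 14.7% (14.1 to 15.3) of retained peaks without GR. Among vehicle-only peaks without GR this share was 28.3% (26.5 to 30.2).

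**Figure D5:**
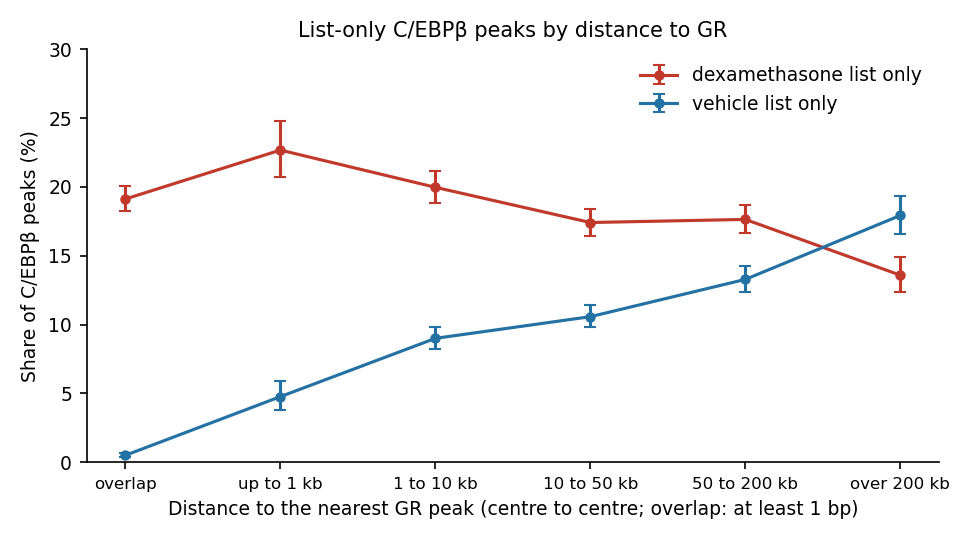
Share of all C/EBPβ peaks that were dex-only or vehicle-only (y axis, %), by distance to the nearest GR peak (x axis, bins), with 95% Wilson intervals as bars. The vehicle-only share rises from 0.511% at overlapping GR peaks to 17.9% beyond 200 kb, where the dex-only share is 13.6%.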

How the data were processed

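The deposited files are 5 lists of mm9 intervals: C/EBPβ peaks and DHS after dexamethasone and after vehicle, and GR peaks. Per the submitters' processing notes, the tools included CASAVA 1.8 and the build was mm9. For alignment, peak calling, thresholds and pooling, the details were not given in the sources used here. Beside positions, the authors' files hold identifiers. The number of unused columns with values of a sample was 0. The depth per sample is unknown. C/EBPβ lists were joined by identifier. Retained peaks had the same coordinates in both lists (0 differed). Intervals were treated as half-open, 2 duplicate DHS rows were removed, and 19 autosomes were used. A DHS held a peak if they overlapped by at least 1 bp, and the larger overlap decided. No p-values are given, since each condition has 1 list. Named regions were the 5 windows of 100 kb with most dex-only and with most vehicle-only peaks, the 3 clusters with most peaks, the longest runs, and the DHS with most peaks. Ties were taken in order of position. The classes, measures and named regions were chosen with earlier results of these data known. No genes were named and no sequences are shown, since no mm9 annotation or sequence was used here. Scripts were tested on simulated lists. Alternatives are described in the closing section. Tools were Python 3.11.15, numpy 2.4.6, pandas 2.3.3, scipy 1.17.1 and matplotlib 3.10.9.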

Additional observations from a re-analysis of the deposited data

How the results depend on the processing

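No paired analysis was possible because the lists carry no replicate numbers, and no replicate could be left out. Of 234 values under other settings, 165 stayed within the counting interval of the reported value. Of 26 orders between classes, 25 kept their direction in every setting, though the intervals of 2 came to overlap. With only DHS wider than the median, 30.8% of dex-only and 30.6% of retained peaks had no DHS. Without list-only peaks within 500 bp of the other list, the median distance to GR of peaks without GR overlap was 25752 bp for dex-only (23731 to 28288), against 29231 bp for retained peaks (27882 to 30468). The exception was the offset in vehicle DHS when narrow DHS were left out (93 bp for vehicle-only, 73.5 bp for retained peaks). Leaving out list-only peaks within 500 bp of the other list gave a dex-only share of 17.5%, medians to the nearest retained peak of 11953 bp (dex-only) and 18112 bp (vehicle-only), shares standing alone of 42.2% and 52.6%, and a dex-only offset of 73 bp. Clusters of 5 kb gave shares standing alone of 53.2% (dex-only) and 64.4% (vehicle-only), and those of 25 kb 22.7% and 32.7%. The share of dex-only peaks at dexamethasone DHS only was 14.6% when DHS within 500 bp counted (retained 4.46%) and 21.1% when only DHS wider than the median were used (retained 10.5%). For vehicle-only peaks at vehicle DHS only, the wider DHS gave 13.7% (retained 7.83%), and DHS lists cut to equal length gave 19.4% (retained 4.36%). In the wider DHS the dex-only offset was 102 bp. Without GR peaks the median log2 width ratio was 0.0218 with dex-only peaks and -0.0236 with retained ones, the latter of opposite sign to the reported value. The cause of these shifts was not tested. With thresholds and depth unknown, the share of list-only peaks that the other list missed by a small margin could not be measured.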
